A study of Rattus norvegicus with 6 samples.

Results

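Integrins and laminins are the receptors and ligands by which cells hold on to basement membranes and to each other, and their transcripts were followed here in the dorsal root ganglia (DRG) of rats with chronic constriction injury (CCI) of the sciatic nerve. The genes were taken by symbol, as symbols that begin like an integrin α subunit (Itga), an integrin β subunit (Itgb) or a laminin α, β or γ chain (Lama, Lamb, Lamc), with 1 row of the expression table for each symbol. Of 43350 gene rows, 37 were taken and reported in this way: 6 leukocyte integrins, 19 other integrins, 9 laminins and 3 proteins that bind integrins and share the start of their symbol (Itgb1bp1, Itgb1bp2 and Itgb3bp). The last 3 are not subunits and are described apart.

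An integrin is a pair of 1 α and 1 β subunit that spans the membrane and links matrix or a counter-receptor outside to talin, kindlin and actin inside. The β2 integrins are made by leukocytes and bind ICAMs and complement fragments, whereas most β1 and β4 integrins bind laminin, collagen or fibronectin. A laminin is a trimer of an α, a β and a γ chain, and laminins form the basal lamina around Schwann cells, the satellite glia that wrap sensory neurons, and blood vessels.

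All rats were male Sprague-Dawley animals, acquired at 6 to 8 weeks of age. In the CCI group the left sciatic nerve was tied loosely in several places, and in the sham group it was exposed in the same way and left untied, although the labels give the sham rats no treatment. Total RNA of the ipsilateral lumbar4-6 DRG was taken on day 11 from 3 rats of each group, depleted of ribosomal RNA and sequenced. The labels speak of a pooled sample, while the study's methods describe 1 rat per sample.

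Each library held between 75423546 and 87615743 counted reads, and a detection limit of 3 counts came to 0.0342 to 0.0394 CPM, the unit of counts scaled to a common library size. The tissue carried its defining transcripts, with Tubb3, the tubulin of neurons, at 1975 to 2888 CPM. The injury genes Atf3, Gal, Npy and Sprr1a passed the test with log2 fold changes of 3.47, 4.49, 6.14 and 5.83. The summed CPM of 8 skeletal muscle genes was 424 in sham 1, 54.4 in sham 3 and 9.03 to 25.5 in the other libraries, so that sham 1 stood apart. The whole ganglion was sequenced, so a change in the number of cells of a type and a change in the RNA per cell cannot be told apart.

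In the CCI group the subunits of the β2 integrins Itgal, Itgb2 and Itgax were at 1.65 to 2.09 times their sham level, and the collagen receptor subunit Itga11 was lower by 37.0%. The remaining integrins and the laminins that could be tested, most of them far more abundant, stayed under the fold limit. Genes were compared with edgeR's quasi-likelihood test over the 26663 rows with a mean FPKM (fragments scaled to gene length and library size) of at least 0.5. A gene was called where the unadjusted p was under 0.05 and the log2 fold change was 0.58 or more in either direction. Of the 37 genes, 31 passed the filter and were tested, of which 3 were called higher and 1 lower. Among all rows tested, 2.57% were called higher and 1.26% lower.

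With Benjamini-Hochberg adjustment over all rows, 0 of the 31 genes passed an adjusted p of 0.05 in edgeR, where 0.0938% of all rows did, and 10 of them had an unadjusted p under 0.05. DESeq2 passed 2 of the 31 after adjustment, Itgal at 0.00751 and Itgb1 at 0.000629, among 2.82% of all rows. Limma on log2(FPKM + 0.1) or on log2(FPKM + 1) passed 0. With 3 rats in each group the smallest p of an exact permutation test is 0.1, and no such test was run.

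The groups of genes differed in their typical change. The median log2 fold change was 0.73 over the 5 leukocyte integrins tested, 0.09 over 17 other integrins and 0.12 over 7 laminins, beside 0.01 over all rows. The filter rests on the mean of all 6 libraries, so a gene can pass through the group where it is high, as Itgax did with a mean of 0.402 FPKM in sham and 0.723 FPKM in CCI. Without the filter the medians were 0.53 over all 6 leukocyte integrins, 0.12 over all 19 other integrins and 0.12 over all 9 laminins.

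**Figure D1:**
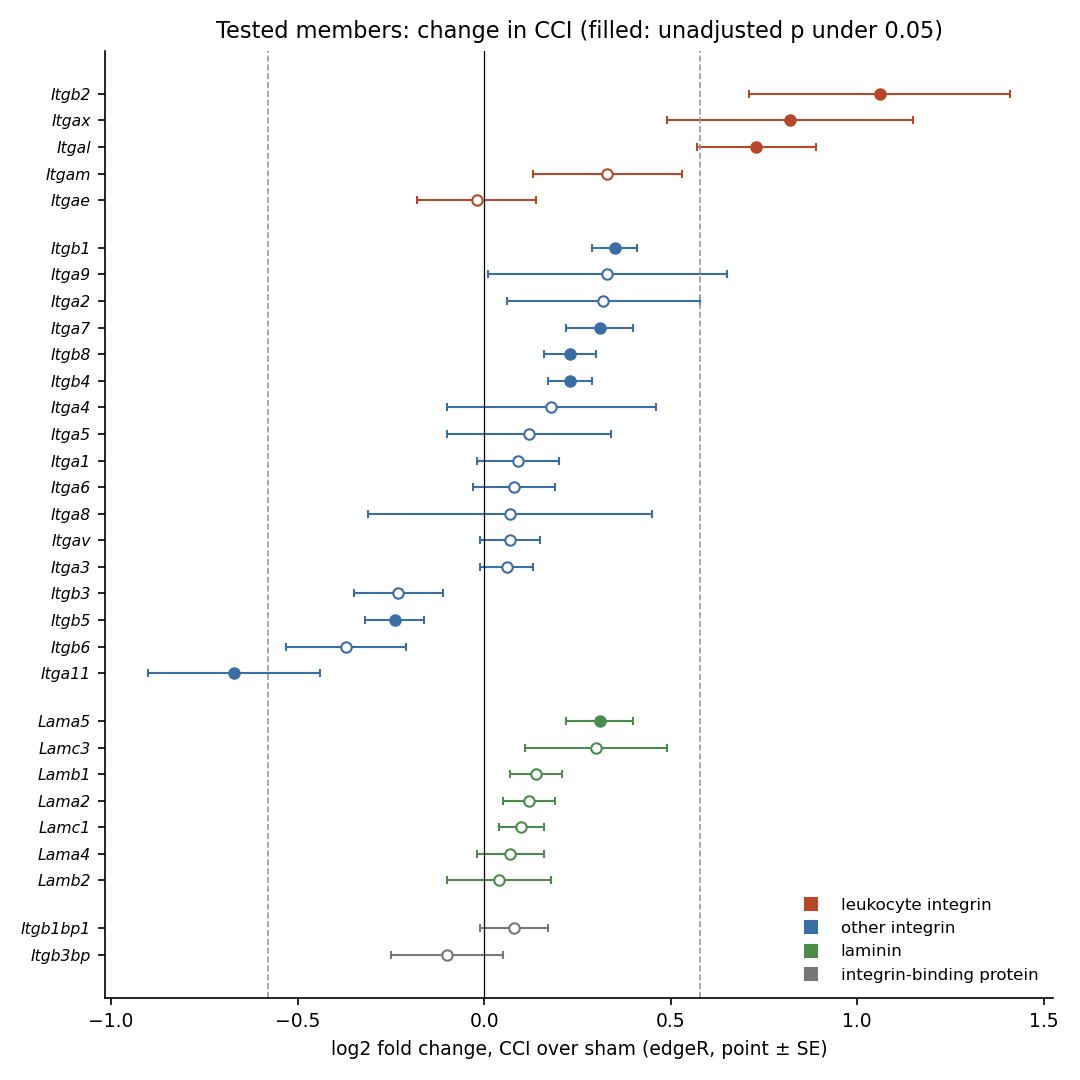
Log2 fold change of CCI over sham (x axis) with its standard error for the 31 tested genes, one per line and coloured by group. Dashed lines mark 0.58 in either direction and filled points an unadjusted p under 0.05. Itgb2, Itgax and Itgal lie right of the upper line and Itga11 lies left of the lower line, while the laminins lie between 0.04 and 0.31.

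The levels per length were very unequal. In the sham group Itgb1, the common β partner, had the highest level of the 25 integrins at 94 ± 1.93 FPKM (SD, n = 3), before Itgb4 at 68.1 ± 3.5 FPKM, Itga6 at 40 ± 3.43 FPKM and Itga7 at 31.6 ± 2.51 FPKM. These are subunits of laminin receptors, and the sham ranges of these genes did not overlap their neighbours in the order. By the rows taken, the leukocyte integrins lay between 0.253 FPKM (Itgb7) and 0.856 FPKM (Itgal). A further row within Itgae, not used here, was at 2.26 ± 0.159 FPKM in sham. Along the whole order of 25 integrins, 15 of the 24 neighbouring pairs had overlapping sham ranges, among them most pairs in the lower part that holds Itgal, Itgb2, Itgae, Itgam and Itgax. As a share of the summed FPKM of all 25 integrins, the 6 leukocyte integrins made up 1.07% ± 0.124 (SD, n = 3) in sham and 1.41% ± 0.257 in CCI, and the ranges of the groups overlapped.

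**Figure D2:**
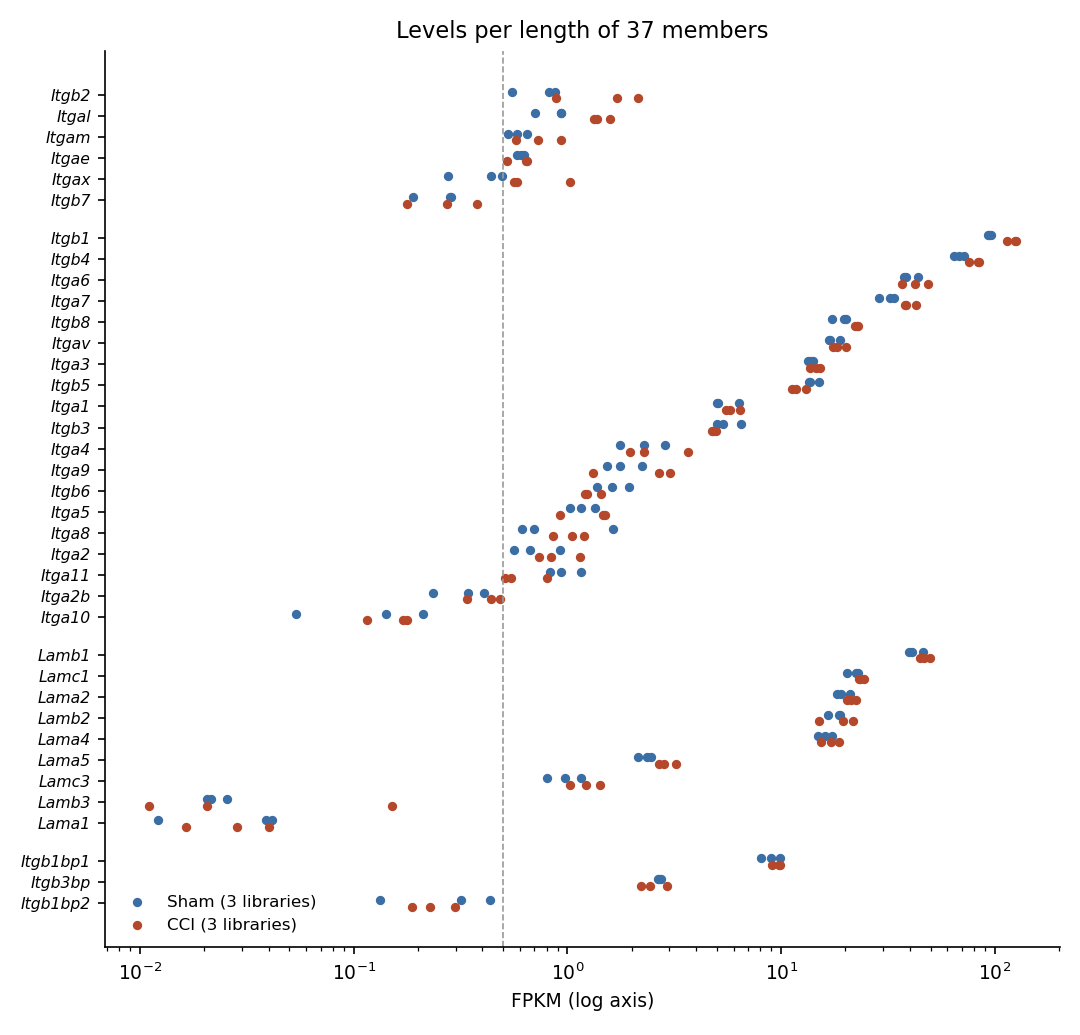
FPKM of all 37 genes on a log axis, with 3 sham and 3 CCI libraries per gene as points and the filter of 0.5 FPKM as a dashed line. Itgb1, Itgb4, Itga6, Itga7 and Lamb1 lie to the far right, and the leukocyte integrins lie near the dashed line in both groups.

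Itgal encodes the α subunit that pairs with β2 to form LFA-1, the ICAM receptor of leukocytes. Its row lies on chromosome 1, from 198744050 to 198781750 on the plus strand of the genome the authors call V101. Itgal was at 7.86, 6.55 and 6.77 CPM in CCI 1, 2 and 3 and at 4.62, 3.52 and 4.68 CPM in sham 1, 2 and 3. The lowest CCI library lay well above the highest sham library. The log2 fold change was 0.73 ± 0.16 (SE), with an unadjusted p of 0.00362 and an adjusted p of 0.208 in edgeR. Of the 31 tested genes, 9 had all CCI libraries above all sham libraries and 3 had them below, beside 8.63% and 8.7% of all rows.

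Itgb2 encodes the β2 subunit itself (chromosome 20, 11777783 to 11815647, minus strand), which all β2 integrins need to reach the cell surface. Itgb2 was at 5.93, 7.41 and 3.05 CPM in CCI 1, 2 and 3 and at 3.02, 1.94 and 2.87 CPM in sham 1, 2 and 3. CCI 1 and CCI 2 were clearly higher, while CCI 3 lay next to sham 1 and its raw count of 232 was below the 265 of sham 1 and the 237 of sham 3. The log2 fold change was 1.06 ± 0.35 (SE), with an unadjusted p of 0.0215 and an adjusted p of 0.36 in edgeR.

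Itgax, the α subunit known as CD11c and used as a marker of dendritic cells and some macrophages, was at 2.99, 5.25 and 2.85 CPM in CCI and at 2.26, 1.44 and 2.57 CPM in sham. The groups did not overlap, but CCI 2 was far above the other CCI libraries. The log2 fold change was 0.82 ± 0.33 (SE), with an unadjusted p of 0.0434 and an adjusted p of 0.446 in edgeR.

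Itgam, the α subunit known as CD11b that forms the complement receptor of macrophages, microglia and neutrophils, was not called. It was at 7.59, 5.98 and 4.69 CPM in CCI and at 5.28, 4.38 and 4.83 CPM in sham, so that CCI 3 lay within the sham range. Its log2 fold change was 0.33 ± 0.2 (SE, unadjusted p = 0.144 in edgeR's model). This row (chromosome 1, 199495298 to 199623960) holds 3 transcripts, is described in the table as integrin subunit alpha D and spans the whole Itgax row (199555722 to 199576932) on the same strand. Itgad has no row of its own, so the values of Itgam may include Itgad, and reads may be divided between the Itgam and Itgax rows.

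Of the subunits that hold lymphocytes in epithelium and gut, Itgae was at 2.81, 2.25 and 2.77 CPM in CCI and at 2.72, 2.56 and 2.68 CPM in sham, with a log2 fold change of -0.02 ± 0.16 (SE). Itgb7 was under the filter, with 40 to 90 counts per library and 0.813, 1.12 and 0.526 CPM in CCI against 0.832, 0.858 and 0.581 CPM in sham. The groups overlapped for both genes. A further row within Itgae on the same strand held more reads, at 15, 13.9 and 13.2 CPM in CCI and 14.2, 16.3 and 14.7 CPM in sham. Its log2 fold change was -0.10 ± 0.10 (SE), and its groups overlapped too. The levels, counts, sums and shares given for the leukocyte integrins leave this further row out.

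**Figure D3:**
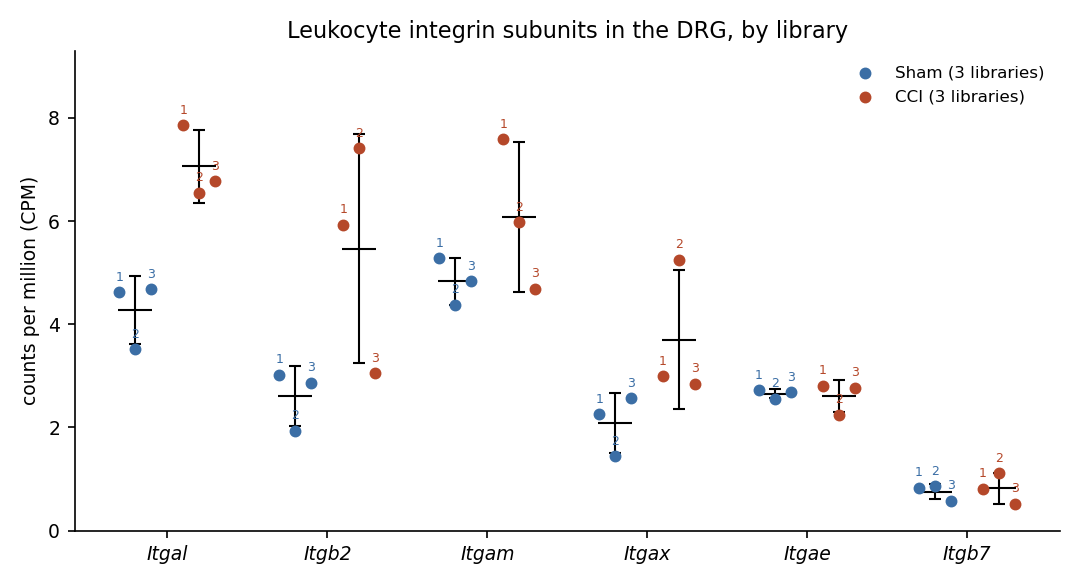
CPM of the 6 leukocyte integrins by library, with points numbered by replicate, and bars for the mean and SD of 3 libraries. The groups are well apart for Itgal, CCI 2 is the highest point for Itgb2 and Itgax, and the groups overlap for Itgam, Itgae and Itgb7.

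The calls rested on single libraries to different degrees. Itgal met the limits without any 1 of the 6 libraries, with log2 fold changes of 0.61 to 0.8. Itgb2 no longer met them without CCI 1, CCI 2 or sham 2, where its log2 fold changes were 1.0, 0.78 and 0.89 and its unadjusted p-values in edgeR 0.0547, 0.0737 and 0.0675. Itgax no longer met them without CCI 2, sham 1 or sham 2, where its log2 fold changes were 0.49, 0.88 and 0.62 and its unadjusted p-values in edgeR 0.151, 0.0762 and 0.115. Without sham 1, the library with the muscle transcripts, Itgal stayed at 0.78 and Itgb2 at 1.18, and both met the limits.

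**Figure D4:**
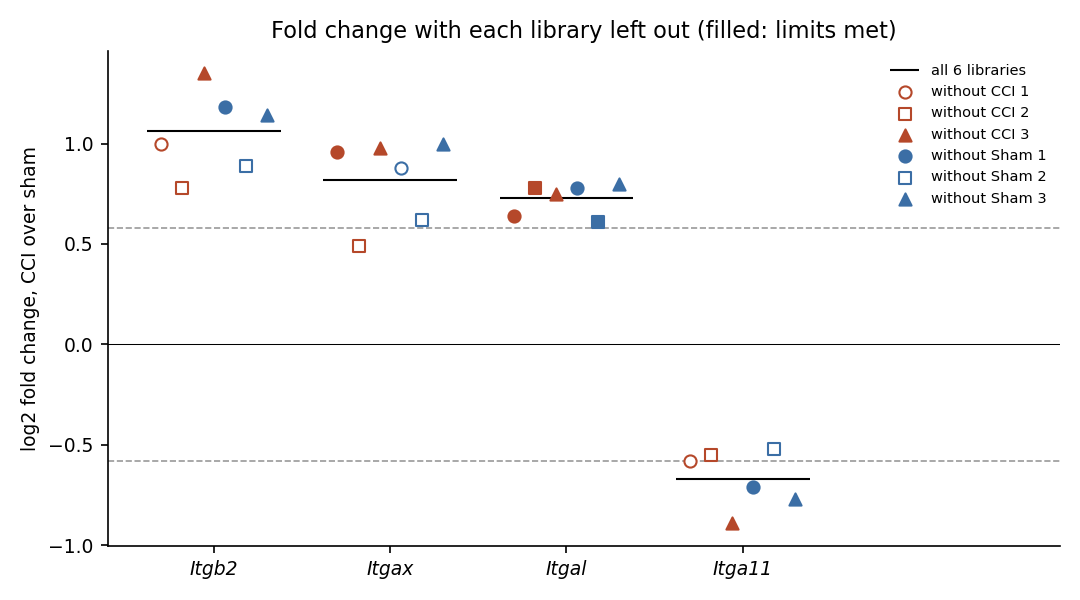
Log2 fold change (y axis) of the 4 called genes with each library left out in turn, as filled symbols where the limits were met and open symbols where not. Black lines give the value from all 6 libraries and dashed lines 0.58 in either direction. All Itgal symbols are filled, and 3 of the 6 symbols are open for each of Itgb2, Itgax and Itga11.

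Macrophage markers moved in the same direction. Of 12 macrophage genes, all were tested and 8 were called higher (Cd68, Csf1r, Cx3cr1, C1qa, C1qb, Tyrobp, Ctss and Fcgr3a), with a median log2 fold change of 0.88 over the list. The share called higher over all rows was 2.57%. The study had already reported Cd68, Csf1r, Cx3cr1, Tyrobp, Ctss and Fcgr3a as upregulated in these libraries. It also listed the C1q complex as enriched among its upregulated genes. These calls are therefore not independent of that report. The summed CPM of the 12 genes was 192, 164 and 134 in CCI 1, 2 and 3 and 91.8, 93.6 and 120 in sham 1, 2 and 3. That of the 6 leukocyte integrins was 28, 28.6 and 20.7 in CCI and 18.7, 14.7 and 18.2 in sham. Within the CCI group, CCI 3 was the lowest in both sums. The highest was CCI 1 for the markers and CCI 2 for the integrins. Adgre1 and Cd163, also markers of macrophages, had log2 fold changes of 0.02 and -0.00. The part of the number of macrophages in the leukocyte integrin values was not tested.

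Markers of lymphocytes were close to the detection limit. The CD3 chains Cd3e, Cd3d and Cd3g, which define T cells, had 0 to 15 counts per library, and 9 of these 18 values were 0. All 11 T and B cell genes other than Cd4 lay under the filter, with at most 1.35 CPM. Of these, Cd8a had 1, 4 and 19 counts in CCI 1, 2 and 3 and 0 in each sham library. Cd79a was lower in CCI, at 0.345, 0.31 and 0.342 CPM against 0.684, 0.707 and 0.424 CPM in sham. The groups overlapped for the others. Cd4, which rat macrophages also express, was called higher (log2 fold change 0.68). Of 6 neutrophil genes 2 were tested and 0 called by edgeR, neither of them at an unadjusted p under 0.05, with a summed CPM of 7.86 to 10.9 in CCI, 16.9 in sham 1 and 5.67 to 6.6 in the other sham libraries.

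**Figure D5:**
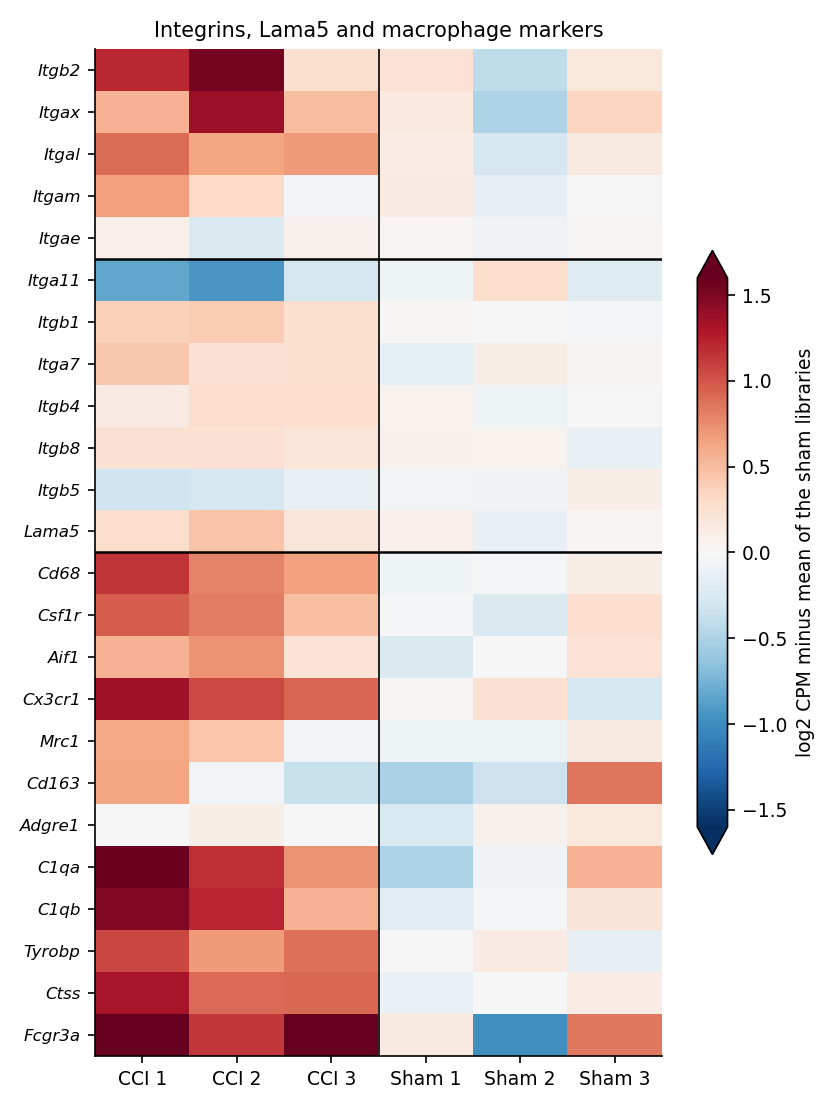
Log2 CPM minus the mean of the sham libraries for each library (columns), for the 5 tested leukocyte integrins (top), the other members with an unadjusted p under 0.05 (middle) and the 12 macrophage markers (bottom). Red is higher and blue lower than sham, and colours saturate at the ends of the bar. Itgb2, Itgax and Itgal and most macrophage markers are red in CCI 1 and CCI 2, while the middle block is pale except for Itga11.

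To show what lies at the start of these genes, promoters were read from RefSeq (build GRCr8) as 250 bases before to 50 bases after the start of transcription. Of the 37 genes, 30 had an entry, among them 4 leukocyte integrins (Itgae, Itgam, Itgax and Itgb7). The 7 genes Itga6, Itga7, Itgal, Itgb2, Itgb3, Itgb4 and Lamb2 are named only. Printed below are Itgam and Itgax, neighbours on chromosome 1 of which only Itgax was called. Also printed are Itga11, the gene that was called lower, and Itgb1, the gene with the highest mean FPKM of the 37. Capitals mark matches on either strand to GAGGAAG, the core bound by the myeloid factor PU.1, to TGAGTCA, a site for AP-1, and to GGGCGG, the box bound by Sp1.
Itgam (chr1:192089342-192089641, plus strand): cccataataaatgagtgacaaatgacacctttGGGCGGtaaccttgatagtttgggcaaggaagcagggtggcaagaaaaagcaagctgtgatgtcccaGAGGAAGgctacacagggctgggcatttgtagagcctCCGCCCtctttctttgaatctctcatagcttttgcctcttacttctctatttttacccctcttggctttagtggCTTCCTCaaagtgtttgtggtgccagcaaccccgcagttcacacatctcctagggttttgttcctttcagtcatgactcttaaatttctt
Itgax (chr1:192149799-192150098, plus strand): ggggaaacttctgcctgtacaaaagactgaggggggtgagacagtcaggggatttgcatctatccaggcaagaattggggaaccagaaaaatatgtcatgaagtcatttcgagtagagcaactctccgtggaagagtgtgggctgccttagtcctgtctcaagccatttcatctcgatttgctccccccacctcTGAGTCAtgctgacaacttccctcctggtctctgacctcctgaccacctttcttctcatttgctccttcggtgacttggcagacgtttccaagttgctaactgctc
Itga11 (chr8:72041182-72041481, plus strand): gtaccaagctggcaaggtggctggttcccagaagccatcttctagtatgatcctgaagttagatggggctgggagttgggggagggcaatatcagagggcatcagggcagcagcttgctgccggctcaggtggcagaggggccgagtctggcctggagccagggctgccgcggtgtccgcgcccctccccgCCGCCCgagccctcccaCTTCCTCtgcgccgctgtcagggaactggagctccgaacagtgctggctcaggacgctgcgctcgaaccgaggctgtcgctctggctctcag
Itgb1 (chr19:73602027-73602326, plus strand): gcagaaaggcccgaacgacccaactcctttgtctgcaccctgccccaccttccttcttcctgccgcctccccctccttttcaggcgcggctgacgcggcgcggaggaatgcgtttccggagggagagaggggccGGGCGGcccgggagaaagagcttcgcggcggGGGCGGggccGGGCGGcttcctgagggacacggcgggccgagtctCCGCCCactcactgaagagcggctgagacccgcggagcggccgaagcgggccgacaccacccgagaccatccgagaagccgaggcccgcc

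The Itgam promoter held the PU.1 core 151 bases before the start on the plus strand and 40 bases before it on the minus strand. In Itgax the AP-1 site lay 56 bases before the start, and it was the only one of the 30 promoters with that site. Among all 33469 promoters in the table, 12.4% held the PU.1 core, 4.63% the AP-1 site and 33.1% the Sp1 box. Among the 30 promoters of these genes, 8 held the PU.1 core, and these were Itga11, Itgae, Itgam, Itgav, Itgb1bp1, Itgb6, Lamb3 and Lamc1. The Sp1 box was in 15 of the 30, including Itgb1, where it occurred 4 times between 116 and 40 bases before the start. Genes called and not called were found with each of the PU.1 core and the Sp1 box, and matches are letters in a window, not sites shown to be bound.

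Itga11, the α subunit of a fibrillar collagen receptor of fibroblasts, was the only one of the other integrins that was called. It was at 2.76, 2.59 and 4.05 CPM in CCI 1, 2 and 3 and at 4.71, 5.97 and 4.26 CPM in sham 1, 2 and 3. The groups did not overlap, though CCI 3 lay just under sham 3. The log2 fold change was -0.67 ± 0.23 (SE), with an unadjusted p of 0.0263 and an adjusted p of 0.383 in edgeR. Without CCI 1, CCI 2 or sham 2 the limits were no longer met, with log2 fold changes of -0.58, -0.55 and -0.52 and unadjusted p-values in edgeR of 0.0748, 0.0797 and 0.087. Of 5 fibroblast markers found, 0 were called by edgeR and 0 had an unadjusted p under 0.05. Their summed CPM was 1649, 2803 and 2558 in CCI and 2627, 2481 and 2646 in sham, with overlapping groups. The part of fibroblasts in the Itga11 values was not tested.

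The other collagen-binding α subunits were not called. Itga1, the most abundant of them, was at 25.3, 26.2 and 29.2 CPM in CCI and at 28.9, 23.5 and 23.3 CPM in sham, with overlapping groups and a log2 fold change of 0.09 ± 0.11 (SE). Itga2 had a log2 fold change of 0.32 ± 0.26 (SE) and was not called, and Itga10 lay under the filter with 27 to 98 counts.

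Among the subunits of laminin receptors, several were slightly higher in CCI. At an unadjusted p under 0.05 and at any size of change, 8 of the 31 tested genes were higher and 2 lower, against 5.57% and 5.18% of all rows. Besides the called genes these were Itgb1, Itga7, Itgb4, Itgb8 and Lama5, which were higher, and Itgb5, which was lower.

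Itgb1 was at 497, 502 and 454 CPM in CCI and at 385, 379 and 376 CPM in sham. All 3 CCI libraries lay above all sham libraries, and the spread within the sham group was small. The increase of 27.4% (log2 fold change 0.35 ± 0.06, SE) had the lowest p of the 37 genes, with an unadjusted p of 0.000594 and an adjusted p of 0.109 in edgeR. Leaving out any 1 library gave 0.32 to 0.39.

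Itga7, the laminin-binding α subunit of muscle and of regrowing axons, was at 309, 272 and 274 CPM in CCI and at 207, 245 and 237 CPM in sham. The groups did not overlap, and the lowest value belonged to sham 1, the library with the most muscle transcripts. Its log2 fold change was 0.31 ± 0.09 (SE, unadjusted p = 0.00942 in edgeR) and 0.24 at the least when 1 library was left out. Of the markers of vessel smooth muscle, which also carries Itga7, and of pericytes, 2 were higher at any size, with log2 fold changes of 0.40 for Acta2 and 0.31 for Tagln at unadjusted p-values in edgeR of 0.0066 and 0.0032, but Myh11, Pdgfrb and Rgs5 had values of 0.05, 0.03 and 0.25 with overlapping groups. The summed CPM of 5 mural markers was 241 to 250 in CCI and 203 to 226 in sham, and 0 of the 5 were called by edgeR, with 2 at an unadjusted p under 0.05. The part of these cells in the Itgb1 and Itga7 values was not tested.

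Itgb4, the β subunit that pairs with Itga6 and is abundant in myelinating Schwann cells, was at 643, 714 and 705 CPM in CCI and at 610, 557 and 590 CPM in sham, a log2 fold change of 0.23 ± 0.06 (SE, unadjusted p = 0.00979 in edgeR). Its partner Itga6 was at 242, 276 and 316 CPM in CCI and at 287, 249 and 254 CPM in sham, with overlapping groups and a log2 fold change of 0.08 ± 0.11 (SE). Itga3, the third laminin-binding α subunit, had a log2 fold change of 0.06 ± 0.07 (SE). Together these 3 α subunits made up 72.1% ± 1.08 (SD, n = 3) of the summed FPKM of all α subunits in CCI and 71.6% ± 1.83 in sham, and the ranges overlapped.

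Itgb8, which pairs with Itgav to bind and activate latent TGF-β, was at 518, 519 and 502 CPM in CCI and at 459, 454 and 402 CPM in sham, a log2 fold change of 0.23 ± 0.07 (SE, unadjusted p = 0.0114 in edgeR). Itgav, the shared α subunit of vitronectin and TGF-β binding integrins, was at 392, 354 and 335 CPM in CCI and at 367, 328 and 332 CPM in sham and had a log2 fold change of 0.07 ± 0.08 (SE). A further partner of Itgav, Itgb5, was at 48.4, 49.7 and 55.5 CPM in CCI and at 58.5, 58 and 65 CPM in sham. This was a log2 fold change of -0.24 ± 0.08 (SE, unadjusted p = 0.0212 in edgeR), and the row taken for Itgb5 is listed as a processed transcript. Itgb3 and Itgb6, which also pair with Itgav, had log2 fold changes of -0.23 ± 0.12 (SE) for Itgb3 and -0.37 ± 0.16 (SE) for Itgb6, and neither was called. Of these 4 β subunits, Itgb8 thus lay above 0 and Itgb3, Itgb5 and Itgb6 lay below it.

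As shares of the summed FPKM of the 8 β subunits, Itgb1 made up 47.5% to 51.4% in CCI and 45.9% to 46.8% in sham. Itgb1 and Itgb4 together made up 82.3% to 82.9% in CCI and 79.1% to 80% in sham, without overlap. Itgb2 made up 0.369% to 0.849% in CCI and 0.276% to 0.416% in sham, and these ranges overlapped. By the rows taken, the 4 leukocyte α subunits made up 2.61% ± 0.281 (SD, n = 3) of all α subunits in CCI and 2.05% ± 0.237 in sham, without overlap. This share leaves out the further row within Itgae, at 2.26, 2.1 and 2.01 FPKM in CCI and 2.14, 2.44 and 2.19 FPKM in sham. That row is larger than any of the leukocyte α rows taken, so the separation holds only without it.

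Among the remaining α subunits, Itga4, which lymphocytes use to bind VCAM1 and which was counted with the other integrins, was at 10.8, 17.2 and 9.14 CPM in CCI and at 13.5, 10.8 and 8.41 CPM in sham. Its log2 fold change was 0.18 ± 0.28 (SE), and the groups overlapped. Itga9, a tenascin receptor subunit, was at 5.2, 11.8 and 10.5 CPM in CCI and at 8.82, 6.13 and 7.01 CPM in sham. CCI 1 was the lowest library of all, and without it the log2 fold change rose from 0.33 to 0.61 (unadjusted p = 0.0181 in edgeR) and met the limits. Itga8 was at 7.65, 5.52 and 6.69 CPM in CCI and at 10.4, 4.52 and 3.98 CPM in sham. The highest value was that of sham 1, and without this library the log2 fold change rose from 0.07 to 0.64 (unadjusted p = 0.0194 in edgeR). Itga5, the fibronectin receptor subunit, had a log2 fold change of 0.12 ± 0.22 (SE), and Itga2b, the platelet subunit, lay under the filter with 69 to 134 counts.

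Of the 9 laminin chains, 5 were abundant and the others were low. Markers of the cells that make most of them, 7 of Schwann cells, 4 of satellite glia and 4 of endothelium, were all tested, with 0 called by edgeR and 0 at an unadjusted p under 0.05. All 7 tested chains had log2 fold changes above 0, from 0.04 to 0.31, and 0 were called by edgeR, with 1 at an unadjusted p under 0.05. In sham Lamb1 had the highest level at 42.2 ± 3.3 FPKM (SD, n = 3), apart from the next. It was followed by Lamc1 at 21.9 ± 1.36 FPKM, Lama2 at 19.5 ± 1.38 FPKM, Lamb2 at 18.1 ± 1.28 FPKM and Lama4 at 16.1 ± 1.19 FPKM, of which each overlapped its neighbour.

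Lama2, the α chain of the endoneurial basal lamina of Schwann cells, was at 369, 384 and 403 CPM in CCI and at 378, 349 and 335 CPM in sham, a log2 fold change of 0.12 ± 0.07 (SE). Lamb1 was at 284, 294 and 312 CPM in CCI and at 291, 262 and 255 CPM in sham, a log2 fold change of 0.14 ± 0.07 (SE). Lamc1, the γ chain of nearly all laminins of this tissue, was at 330, 346 and 329 CPM in CCI and at 324, 322 and 293 CPM in sham, a log2 fold change of 0.10 ± 0.06 (SE). For Lama2 and Lamb1 the sham 1 library lay among the CCI libraries, whereas for Lamc1 the groups were narrowly apart. Lama4 and Lamb2, chains of vessels and of nerve, had log2 fold changes of 0.07 ± 0.09 (SE) and 0.04 ± 0.14 (SE).

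Lama5, an α chain of mature basement membranes, was the laminin with the lowest p. It was at 35.1, 39.7 and 33.1 CPM in CCI and at 30.7, 26.7 and 29.6 CPM in sham, a log2 fold change of 0.31 ± 0.09 (SE) with an unadjusted p of 0.0144 and an adjusted p of 0.321 in edgeR. The groups did not overlap. Lamc3, a γ chain of low level, had a log2 fold change of 0.30 ± 0.19 (SE) and was not called. Lama1 lay under the filter with 12 to 43 counts. Lamb3 had 4 to 10 counts in all libraries but CCI 1, which had 56. The groups overlapped in the make-up of the chains. Lamb1 made up 71.5% ± 3.27 (SD, n = 3) of the summed FPKM of the 3 β chains in CCI and 69.9% ± 1.92 in sham, and Lama2 and Lama4 together made up 92.9% ± 0.619 of the 4 α chains in CCI and 93.8% ± 0.492 in sham.

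The 3 integrin-binding proteins that share the symbol were not called. Itgb1bp1, which binds the tail of β1, had a log2 fold change of 0.08 ± 0.09 (SE), Itgb3bp had one of -0.10 ± 0.15 (SE), and Itgb1bp2, a protein of muscle, lay under the filter with 16 to 54 counts, the highest of them in sham 1.

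Genes around the receptors were read from lists of counter-receptors, activators, signalling proteins, other matrix ligands and other laminin receptors. Of 47 genes listed, 46 had a row and 43 were tested. None of the 43 met the limits in edgeR, while 5 were higher and 2 lower at an unadjusted p under 0.05, against 5.57% and 5.18% of all rows. Over the 43 genes the median log2 fold change was 0.06. The higher ones were Tln1 (0.39), Vcl (0.21), Zyx (0.21), Bcam (0.20) and Rpsa (0.15), and the lower ones were Tln2 (-0.23) and Cdh1 (-0.18). Both talins link integrin tails to actin, and they lay on opposite sides of 0. Tln1 was at 366, 310 and 306 CPM in CCI and at 240, 255 and 252 CPM in sham, while Tln2, the form of neurons and muscle, was at 336, 363 and 358 CPM in CCI and at 399, 417 and 421 CPM in sham. The groups did not overlap for either, and the adjusted p in edgeR was 0.172 for Tln1 and 0.222 for Tln2. Of 8 sensory neuron markers, 3 were lower (Nefh, Nefl and Calca) and 1 higher (Tubb3) at an unadjusted p under 0.05 in edgeR, with a median log2 fold change of -0.18 and a summed CPM of 10908 to 11440 in CCI and 12752 to 14073 in sham. The part of neurons in the Tln2 values was not tested. The β2 counter-receptors Icam1 and Icam2 had log2 fold changes of 0.26 ± 0.18 (SE) and -0.10 ± 0.34 (SE), and Fermt3, the kindlin of blood cells, had one of 0.24 ± 0.18 (SE).

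Beside the 37 rows, 23 further rows carried the symbol of 1 of 9 of these genes, as pieces assembled within the gene or, for 1 row of Lamc1, reaching beyond it. Of these, 18 lay on the opposite strand to the gene and 2 had no strand. Lama2 had 9 such rows and Lamc1 had 4. All 23 were tested, and 1 was called, a row within Itga8, beside 2.57% of all rows called higher and 1.26% lower. The library kit marked strand, but whether strand was used in counting is not given in the sources used here, so reads of these pieces and of the genes themselves may not be fully separated.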

How the data were processed

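RNA-seq libraries of 3 CCI and 3 sham rats were compared. The authors deposited 1 table in which each row is an assembled locus, with whole-number read counts per library, not normalized, and FPKM values that they made from the counts. The submitters' processing notes name HISAT2 2.0 and StringTie 1.3.0, and the study's methods name the rat genome V101. The methods give 1 rat per sample, and p-values measure the spread between these samples. Samples were grouped by the surgery in their titles.

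For each symbol a protein-coding row was preferred, and among several the one with most counts. Rows were fitted if their mean FPKM reached 0.5, in edgeR 4.0.16 (quasi-likelihood test, TMM factors of 0.988 to 1.01, trended prior, no covariates, two-sided) with Benjamini-Hochberg adjustment over 26663 rows. CPM values use the effective library sizes, and fold changes are CCI over sham. Detection limits cover counting error only, while SD and SE include the spread between libraries. The 6849 rows without a symbol took 5.37% to 5.72% of a library's counts. R 4.3.3, limma 3.58.1, DESeq2 1.42.0 and Python with pandas and matplotlib were used, and the tests were tested on simulated data first.

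The genes and lists were chosen with earlier results of these data known. Named with values in every library are all leukocyte integrins, the called genes, the members with the highest mean FPKM of each class and, chosen after their values were seen, those with an unadjusted p under 0.05, and Itga8 and Itga9, whose calls turned on 1 library. The motifs were also chosen afterwards. Itgad, Lama3 and Lamb4 had no row under their symbol, and 1 gene that the symbols match is not reported here. The alternatives were DESeq2's size factors, DESeq2, no filter, a mean FPKM minimum of 1, limma on log2(FPKM + 0.1) and log2(FPKM + 1), a block for the replicate number, leaving out each library, the row with the largest total, and Itga4 counted as a leukocyte integrin.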

Additional observations from a re-analysis of the deposited data

Results flagged for a closer look

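A row that the comparisons above do not use was called within Itga8. It was the only call among the 23 further rows, while 2.57% of all rows were called higher and 1.26% lower. A single call is thus near the share over all rows. This piece of the gene (chromosome 17, 79553029 to 79558840, no strand given) was at 10.5, 7.12 and 12.9 CPM in CCI 1, 2 and 3 and at 6.43, 6.43 and 4.84 CPM in sham 1, 2 and 3, so that the groups did not overlap. Its log2 fold change was 0.79 ± 0.24 (SE, unadjusted p = 0.0152 and adjusted p = 0.323 in edgeR), whereas the row of the gene itself had 0.07 ± 0.38 (SE). Leaving out 1 library gave 0.58 to 0.99. The difference between both rows was not tested.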

How the results depend on the processing

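All medians stayed above 0 under every alternative run. The log2 fold changes of the 19 members in these comparisons kept their direction wherever they were called. Of their 262 values, 244 stayed on the same side of the limits, while 18 no longer met them. All 18 belonged to the called genes, 6 to Itga11, 6 to Itgax, 5 to Itgb2 and 1 to Itgal. The members not called stayed outside the limits throughout. Itga8 and Itga9, which met the limits when 1 library was left out, are not among the 19. With limma on log2(FPKM + 1) 0 members were called higher, 0 lower and 571 rows in all, and the median of the leukocyte integrins was 0.29; this scale shrinks the change of genes near 1 FPKM. Itga11 and Itgax were not called with limma on log2(FPKM + 0.1), and with a mean FPKM of at least 1 they were not tested, so 0 members were called lower and 2 higher in both. With a replicate block 1 member was called higher, Itgal, which was the 1 leukocyte integrin, and 0 lower. Samples of the same number did not deviate together (correlations of -0.0106, -0.0218 and -0.0547). This gave no sign that the numbers pair the rats, but it cannot exclude a pairing. Leaving out 1 library gave 915 to 1188 called rows, 1 to 3 members and 1 to 3 leukocyte integrins called higher and 0 to 1 members lower. Without CCI 2 and without sham 2 only Itgal was called higher, and without CCI 1, CCI 2 or sham 2 0 were called lower. The medians then ranged from 0.49 to 0.8 for leukocyte integrins, from 0.05 to 0.17 for other integrins and from 0.08 to 0.17 for laminins. Counting Itga4 with the leukocyte integrins, or taking the row with the largest total, moved no count by over 1.5 times. Counting Itga4 with them lowered the median of the leukocyte integrins from 0.73 to 0.53. Taking the row with the largest total gave 4 members called higher and left that median at 0.73. The added member was Itga8, through the further row described above (log2 fold change 0.79), so its call turns on the choice of row. With 3 rats per group and 40 to 638 counts per library for the leukocyte integrins, small changes of these genes could not be detected.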
